A study of Mus musculus with 4 samples.

Results

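The genes described here encode Fc receptors for immunoglobulin G, their adaptor, a related adaptor and kinases: Fcgr1, Fcgr2b, Fcgr3, Fcgr4, Fcer1g, Tyrobp, Syk and Lyn. They were chosen by name, and all 8 were found among the 21887 protein-coding genes of the RefSeq annotation. Binding of MED1 was mapped by ChIP-seq; MED1 belongs to Mediator, the complex that connects transcription factors with RNA polymerase II. The cells were RAW 264.7, an established mouse line labelled as monocyte/macrophage-like. The groups were cells given lipopolysaccharide (LPS) for 2 h (2 libraries) and untreated cells (2 libraries), all of the same line. The LPS dose is 10 ng/mL in the sample labels and 100 ng/mL in the treatment protocol. The deposited values are the positions of 1 list of intervals for the 4 libraries, without height, significance or library of origin. LPS and untreated cells could therefore not be compared at any gene, depth is unknown, and all values below describe this list with no spread between libraries. The sources used here name neither the settings of the peak calling nor a control, so background calls and MED1 occupancy cannot be told apart.

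Fc receptors on macrophages bind the constant part of antibodies and start phagocytosis and cytokine release. Activating receptors of this family signal by pairing with a small adaptor that carries an immunoreceptor tyrosine-based activation motif (ITAM). A Src-family kinase phosphorylates the ITAM, the kinase SYK docks on it, and downstream enzymes follow, while the inhibitory receptor Fcgr2b recruits phosphatases that oppose these steps. Fcgr1, Fcgr3 and Fcgr4 are activating receptors, Fcer1g encodes their shared adaptor FcR gamma, Tyrobp encodes the related adaptor DAP12, and Lyn is a Src-family kinase that can serve both activation and inhibition.

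Abutting intervals were joined into regions, and a region was assigned to a gene when it overlapped the gene or had its midpoint within 50 kb of either gene end. All 8 genes had assigned regions, as did 70.6% of all protein-coding genes. A region overlapped the gene itself in 8 of 8 cases, against 50.6% of all protein-coding genes. The number assigned was 9 at Fcgr1, 8 at Fcgr2b, 8 at Lyn, 7 at each of Fcgr3, Fcgr4 and Syk, 5 at Fcer1g and 4 at Tyrobp. All 8 genes thus had 4 or more, as did 34.8% of protein-coding genes. The median was 7 regions, against 2 over all protein-coding genes. These are descriptions of 8 named genes, several of them neighbours, and no test was made. The cell line's labelled identity was set against marker genes. Regions overlapped 8 of 8 macrophage markers (among them Csf1r, Spi1 and Itgam), 2 of 5 T cell markers, and 0 of 4 B cell, 0 of 4 mast cell, 0 of 4 NK cell, 0 of 3 hepatocyte and 0 of 3 neuronal markers. By the 50 kb rule the lists separated less: 8 of 8 macrophage, 4 of 5 T cell and 4 of 4 B cell markers had an assigned region, with medians of 6, 4 and 2, as did 1 marker each of the mast cell, NK cell, hepatocyte and neuronal lists (medians of 0).

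**Figure D1:**
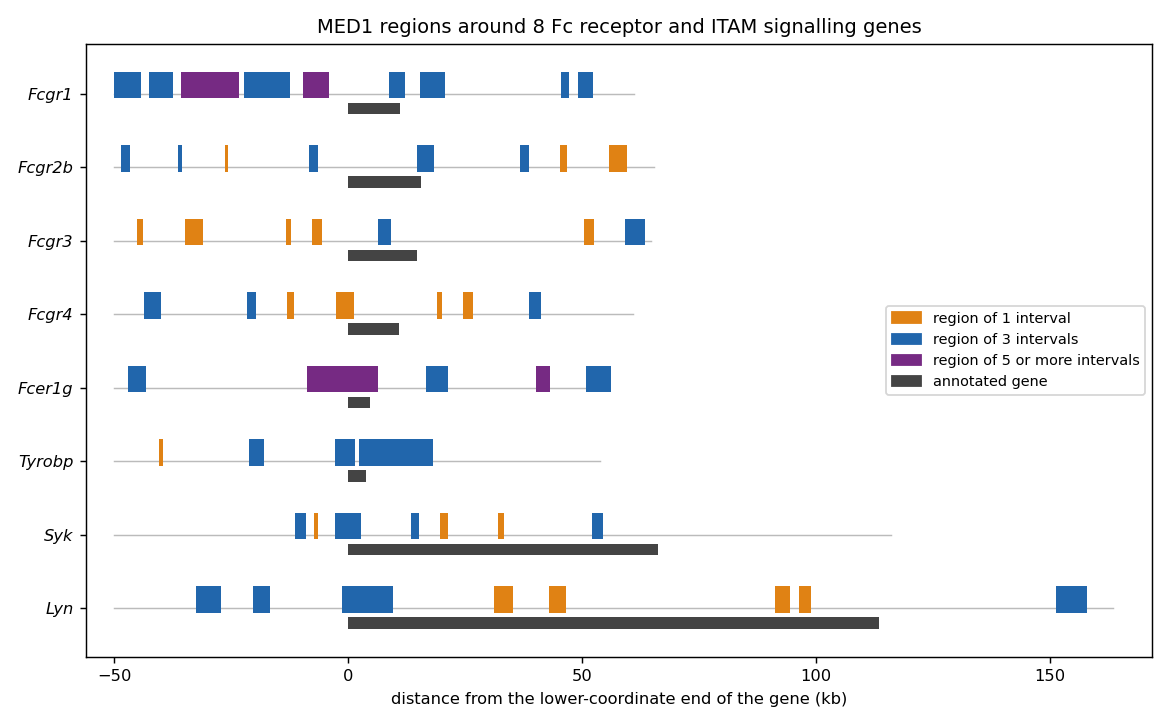
Position of MED1 regions (coloured bars) at the 8 genes, in kb from the lower-coordinate end of each gene; the dark bar is the annotated gene and the grey line runs 50 kb to either side. Regions lie on both sides of the short receptor genes, whereas at Syk and Lyn 5 regions lie over the gene itself.

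The 8 genes drew on 46 distinct regions (120 deposited intervals, 193 kb in all) of the 22570 in the list. Of these, 17 overlapped one of the genes and 7 were assigned to more than one of them. The end of one of the 8 genes was the nearest protein-coding gene end for 28 of the 46; the others lay nearer to a neighbouring gene. The regions had a median width of 3264.5 bp (quartiles 1866 and 5258 bp), against 1948 bp (quartiles 1302 and 3012 bp) for all regions. The widest 10% of all regions, from 4917 bp upwards, held 13 of the 46. Those nearest to an end of the 8 genes measured 5453 bp (Fcgr1), 15253 bp (Fcer1g), 5448 bp (Syk), and 5299 and 10957 bp (Lyn). The others lay nearest to a neighbouring gene. At Fcgr1 these were 5136, 5628, 5808, 9804 and 12548 bp wide, nearest to histone genes. The rest were 5421 bp at Fcer1g (Usp21), 15772 bp at Tyrobp (Nfkbid) and 6650 bp at Lyn (Rps20). By number of intervals, 14 regions (30.4%) were single, 28 (60.9%) had 3 and 4 (8.70%) had 5 or more. The shares over the whole list were 35.3%, 60.4% and 3.82%, so the share of 3-interval regions was close to that of the list, and the share of regions with 5 or more, which rests on 4 regions, was higher. In the 28 regions of 3 intervals, the middle interval took a median of 73.2% of the width (39.2 to 99.5%), against a median of 78.5% (quartiles 64.8 and 87.9%) for all such regions.

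RefSeq promoter windows (250 bases before to 50 after a start, build GRCm38.p6, the assembly that mm10 names) were matched for 6 of the 8 genes, with 8 windows in all. An annotated start lay inside a MED1 region in 6 of 6 genes, against 42.8% of 17492 protein-coding genes with such a window. The windows of the Fc gamma receptors are printed here, and each lies wholly inside the region that overlaps its gene. The windows of Fcer1g and Syk also lie wholly inside regions over their genes. Each is on the strand of the gene, 5′ to 3′, and capitals mark the ETS core GGAAGT on either strand, the letters at the centre of sites bound by the macrophage factor PU.1. Where the longer form GGAAGTG was present, all of its letters are in capitals.
Fcgr1, chr3:96293920-96294219, minus strand: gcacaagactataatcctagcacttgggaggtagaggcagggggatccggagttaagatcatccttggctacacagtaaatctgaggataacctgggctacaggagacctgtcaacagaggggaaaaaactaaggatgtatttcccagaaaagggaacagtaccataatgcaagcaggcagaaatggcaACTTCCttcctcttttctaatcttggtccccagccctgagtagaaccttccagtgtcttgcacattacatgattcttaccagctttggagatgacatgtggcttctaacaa
Fcgr2b, chr1:170976022-170976321, minus strand: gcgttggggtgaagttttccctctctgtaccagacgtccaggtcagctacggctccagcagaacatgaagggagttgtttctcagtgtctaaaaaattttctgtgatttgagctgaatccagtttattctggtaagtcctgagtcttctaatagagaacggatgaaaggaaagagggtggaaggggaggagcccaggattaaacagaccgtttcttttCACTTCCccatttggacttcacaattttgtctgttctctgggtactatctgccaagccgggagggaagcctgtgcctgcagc
Fcgr3, chr1:171059354-171059653, minus strand: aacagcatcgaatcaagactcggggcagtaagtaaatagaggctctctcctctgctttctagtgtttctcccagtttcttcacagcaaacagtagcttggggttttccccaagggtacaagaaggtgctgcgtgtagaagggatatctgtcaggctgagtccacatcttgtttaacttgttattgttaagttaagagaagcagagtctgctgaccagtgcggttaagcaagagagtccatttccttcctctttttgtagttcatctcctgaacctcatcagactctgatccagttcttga
Fcgr4, chr1:171018676-171018975, plus strand: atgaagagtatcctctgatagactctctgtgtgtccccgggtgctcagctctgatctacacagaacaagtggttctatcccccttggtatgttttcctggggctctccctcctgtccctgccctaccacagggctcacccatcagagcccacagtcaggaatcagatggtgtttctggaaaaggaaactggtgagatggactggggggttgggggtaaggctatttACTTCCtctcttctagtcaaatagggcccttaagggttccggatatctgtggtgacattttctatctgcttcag

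The core was found in 3 of these 4 windows, in each as its reverse complement ACTTCC. Its first base lay 61 bases before the start at Fcgr1, 31 before it at Fcgr2b and 24 before it at Fcgr4. The longer form GGAAGTG, which contains the core, was present at Fcgr2b only among the 4. Over all 8 member windows, 4 held GGAAGT and 2 held GGAAGTG, and the window of Fcer1g held neither. Of all 32851 promoter windows, 23.8% held GGAAGT and 11.0% GGAAGTG, so a match by itself is common. At Fcgr3 the letters TTGCNNAA, a C/EBP pattern, were found as the reverse complement TTAAGCAA, on the strand opposite the gene, from 28 bases before the start (10.8% of all windows), and at Fcgr4 the interferon regulatory factor pattern GAAANNGAA began 73 bases before it (8.56%). The letters searched for AP-1 (TGANTCA, 7.81% of windows), NF-kB (GGANTTTCC, 1.25%) and the E-box CACGTG (7.15%) were in none of the 8 member windows. All motifs were searched on both strands. The 4 receptor windows lay below the median in CpG, with 1 CpG at Fcgr1, 2 at Fcgr4, 4 at Fcgr3 and 6 at Fcgr2b, against 7 over all windows.

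Fcgr1 encodes the high-affinity IgG receptor (chr3:96282909-96293969). Its 9 regions covered 47.3% of the gene and its 50 kb flanks, more than at 99.7% of protein-coding genes and the most among the 8. A single region of 3385 bp (chr3:96291746-96295130, 3 intervals) overlapped the gene; it reached 1161 bp upstream and 2223 bp downstream of the start, which lay in the middle interval. A second, of 5453 bp, lay 4320 bp beyond the gene on its upstream side with no protein-coding gene under it. Most regions counted at Fcgr1 lay nearer to another gene. On the other side of the gene, 4 regions of 5136 to 12548 bp overlapped 6 genes of a histone cluster (H3c15, H2ac19, H3c14, H4c14, H3c13 and H2bc18), which encode core histones. Regions overlapped 57 of 67 such clustered histone genes genome-wide (85.1%). A further region of 5628 bp with 5 intervals stood between the histone genes and Fcgr1, 3957 bp from the gene and overlapping no protein-coding gene. The remaining 2 regions lay 34411 and 38141 bp away, over a small nuclear RNA gene and over 2 tRNA genes. Fcgr1 itself was thus the nearest protein-coding gene for 4 of its 9 regions.

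**Figure D2:**
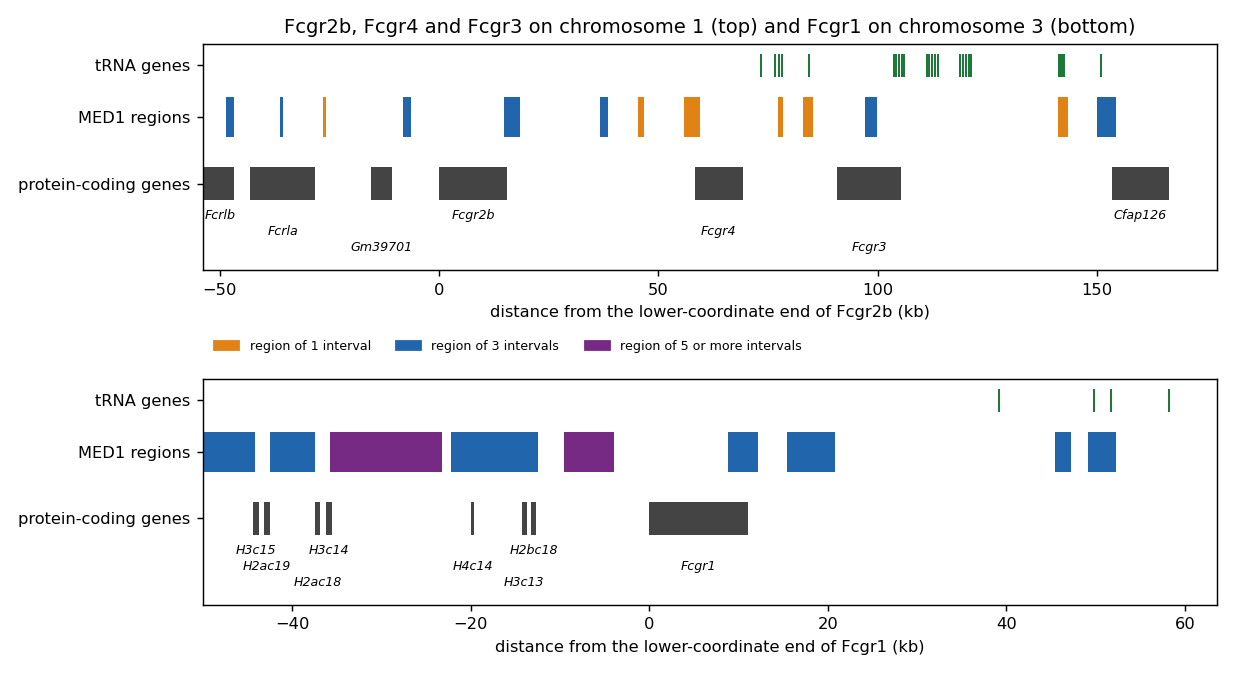
MED1 regions (coloured by number of intervals), protein-coding genes and tRNA genes around Fcgr2b, Fcgr4 and Fcgr3 (top) and around Fcgr1 (bottom), in kb from the lower-coordinate end of Fcgr2b and of Fcgr1. Each Fc gamma receptor gene has 1 region over it; wide regions lie over the histone genes beside Fcgr1, and several regions of 1 interval lie over tRNA genes near Fcgr3 and Fcgr4.

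Fcgr2b, Fcgr4 and Fcgr3 lie side by side on chromosome 1, and their windows share regions. From the lower end of Fcgr2b to the upper end of Fcgr3 (105 kb) there were 7 regions, which covered 15.7% of the stretch, 4 of them single intervals and 3 of 3 intervals. These 7 are the same 7 that were assigned to Fcgr4. Each receptor gene was overlapped by 1 of them and by no other.

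At Fcgr2b, the inhibitory receptor (chr1:170960558-170976071), the overlapping region measured 3711 bp (chr1:170975301-170979011) with intervals of 295, 2351 and 1065 bp. It extended 2940 bp upstream and 770 bp downstream of the start and also lay over the long non-coding RNA gene Gm34968. At Fcgr4 (chr1:171018926-171029761), an activating receptor, the region was a single interval of 3830 bp (chr1:171016300-171020129), 2626 bp of it upstream of the start. Fcgr4 was the only one of the 6 genes with a listed start whose start lay in a region of 1 interval; over all genes whose first listed start lay in a region, 874 of 7296 were of this kind and 5965 (81.8%) lay in a region of 3 intervals. At Fcgr3 (chr1:171051169-171065915), a low-affinity activating receptor, the region measured 2675 bp (chr1:171057610-171060284, intervals of 1201, 1049 and 425 bp). It lay inside the annotated gene, over both listed starts, which are 9 bases apart in position (171059394 and 171059403). The upper end of the gene model, 171065915, lay outside any region. The region at Fcgr3 would therefore be read as internal from the gene ends alone and as a promoter region from the listed starts.

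Between the receptor genes lay regions with no protein-coding gene under them. Between Fcgr2b and Fcgr4 (42.9 kb) there were 2 such regions, of 1816 bp with 3 intervals (chr1:170997356-170999171) and of 1303 bp with 1 interval (chr1:171005977-171007279). Between Fcgr4 and Fcgr3 (21.4 kb) there were also 2, of 1033 and 2154 bp with 1 interval each, and both lay over tRNA genes. On the far side of Fcgr3, a region of 2291 bp lay over 4 tRNA genes and one of 4269 bp over 1 tRNA gene and the neighbouring gene Cfap126. Of the 46 regions at the 8 genes, 5 (10.9%) overlapped a tRNA gene, against 100 of 22570 regions in the list (0.443%). The tRNA genes near these receptors were many, and the share of them that a region overlapped was not above that of all tRNA genes: 8 of 25 between Fcgr2b and Fcgr3 or within 50 kb of them were overlapped (32.0%), against 164 of 408 genome-wide (40.2%). Whether these regions concern the receptors or the tRNA genes was not tested. Copies of a tRNA gene, and the Fc gamma receptor genes to a lesser degree, resemble one another in sequence, and how reads matching several places were counted is not stated, so the placing of regions here is less certain. On the other side of Fcgr2b, its remaining regions included 1926 bp over Fcrlb and 879 bp over Fcrla, Fc receptor-like genes, and 638 bp near Fcrla, the narrowest of the 46. One of 1846 bp lay 6393 bp from Fcgr2b, nearest to Gm39701.

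Fcer1g, the FcR gamma adaptor (chr1:171229572-171234349), lay 164 kb beyond Fcgr3 and shared no region with it. The whole gene was inside one region of 15253 bp (chr1:171220733-171235985), wider than 99.3% of all regions. That region had 5 intervals of 417, 3975, 313, 10487 and 61 bp, and the start of Fcer1g lay in the fourth, the widest. It also overlapped neighbouring genes, among them Tomm40l and Apoa2, so it cannot be assigned to Fcer1g alone. From the start, it extended 13616 bp downstream, through the gene and over Apoa2 into Tomm40l, and 1636 bp upstream. The other 4 regions, of 3029 to 5421 bp, each overlapped at least 1 other protein-coding gene, among them Pcp4l1, Adamts4, B4galt3, Ppox and Usp21. With 5 regions, Fcer1g exceeded 74.8% of protein-coding genes in number but 98.1% in the share of its window covered (29.4%).

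Tyrobp, the DAP12 adaptor (chr7:30413782-30417582), had the fewest regions of the 8 and the widest single one. A region of 4261 bp (chr7:30410972-30415232) covered its lower end, and one of 15772 bp (chr7:30416208-30431979, intervals of 161, 9377 and 6234 bp) covered its upper end. Both ends lay in the middle of 3 intervals. The wide region also lay over Hcst, which encodes the related adaptor DAP10, and Nfkbid, an IkB-family regulator of NF-kB. Of the other 2 regions, one of 3144 bp lay over a long non-coding RNA gene and one of 863 bp over no protein-coding or long non-coding RNA gene. The window was 23.2% covered, more than at 96.1% of protein-coding genes, although 65.2% had fewer regions.

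Syk and Lyn, the kinases, differed from the receptors and adaptors in that most of their regions lay over the gene: 5 of 7 at Syk and 5 of 8 at Lyn, against 1 or 2 at each of the 6 shorter genes. Both are long (66183 and 113545 bp), and in the 2237 protein-coding genes of 60000 to 120000 bp the median was 1 overlapping region and the 90th percentile 4. The nearest protein-coding gene end belonged to the kinase itself for 7 of 7 regions at Syk and 7 of 8 at Lyn.

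At Syk (chr13:52582610-52648792), which encodes the kinase that docks on phosphorylated ITAMs, RefSeq lists 2 starts, and each had its own region. The first lay in a region of 5448 bp (chr13:52579883-52585330) with 3554 bp upstream of it, and the other, 13.4 kb into the gene from the first, in a region of 1736 bp (chr13:52596072-52597807). Both starts were in the middle of 3 intervals. Their promoter windows differ in base composition and are printed for that contrast, with capitals as above.
Syk first start, chr13:52583187-52583486, plus strand: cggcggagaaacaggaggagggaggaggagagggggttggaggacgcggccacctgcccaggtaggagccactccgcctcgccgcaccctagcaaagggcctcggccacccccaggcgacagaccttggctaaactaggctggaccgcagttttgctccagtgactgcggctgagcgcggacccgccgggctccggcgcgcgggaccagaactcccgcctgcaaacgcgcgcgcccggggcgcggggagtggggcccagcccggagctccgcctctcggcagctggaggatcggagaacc
Syk second start, chr13:52596632-52596931, plus strand: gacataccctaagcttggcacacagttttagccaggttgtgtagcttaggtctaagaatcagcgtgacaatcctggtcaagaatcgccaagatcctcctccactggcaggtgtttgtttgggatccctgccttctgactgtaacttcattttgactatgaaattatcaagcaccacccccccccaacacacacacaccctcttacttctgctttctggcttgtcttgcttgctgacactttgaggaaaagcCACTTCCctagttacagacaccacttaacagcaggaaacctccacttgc

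The first window was 72.0% G or C with 31 CpG, more CpG than in 89.4% of all windows. The second was 48.0% G or C with 2 CpG, and held CACTTCC, the reverse complement of GGAAGTG, from 1 base after its start position. The first held none of the 7 motifs searched. The other 3 regions inside Syk measured 1625, 1268 and 2348 bp, and 2 regions of 858 and 2352 bp lay before the gene; no region was assigned beyond its upper end. Coverage of the window was 9.41%, the lowest of the 8 and above that of 78.7% of protein-coding genes.

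At Lyn (chr4:3678068-3791612) a region of 10957 bp (chr4:3676806-3687762, intervals of 695, 6371 and 3891 bp) covered the lower end, which lay in the middle interval. The 4 further regions over the gene were all single intervals, of 4066, 3587, 3116 and 2525 bp, each above the 1346 bp median of single-interval regions in the list. They formed 2 pairs, with midpoints 33.2 and 44.7 kb and 92.9 and 97.6 kb from the lower end. The upper end lay outside any region. Outside the gene, regions of 5299 and 3763 bp lay on the lower side and one of 6650 bp over Rps20, a ribosomal protein gene, on the upper side.

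The order of the genes therefore depended on the measure. By share of window covered it ran from Fcgr1 (47.3%) through Fcer1g (29.4%), Tyrobp (23.2%), Lyn (18.7%), Fcgr3 (15.3%), Fcgr4 (14.9%) and Fcgr2b (13.8%) to Syk (9.41%), against a median of 3.07% for all protein-coding genes. Regions fewer than 12501 bases apart were also stitched into clusters, 13554 in all. The clusters over Tyrobp (20033 bp covered, rank 351) and Fcer1g (19942 bp, rank 356) were among the largest 5%, both also over neighbouring genes. The clusters over the other 6 genes were smaller: Syk reached rank 776 with 6 regions and 13287 bp, Lyn rank 1074, Fcgr1 rank 1523, Fcgr4 rank 2116, Fcgr3 rank 2643 and Fcgr2b rank 4468.

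Related genes were taken from 6 lists. Of 102 genes found, 91 had an assigned region and 73 were overlapped by one, with a median of 5 regions; over all protein-coding genes 70.6% had an assigned region, 50.6% were overlapped and the median was 2. The counts are descriptions, set beside these shares, and no difference between lists was tested. The list of SYK-proximal effectors held enzymes and scaffolds acting on or after SYK, together with the SYK relative Zap70. Of its 31 genes, 28 were overlapped (median 6). Tec, a kinase, had 14 regions, the adaptor Grb2 13, the kinase Ptk2b 11 and the adaptor Pik3ap1 10. Zap70, the T cell relative of SYK, and Plcg1 had 0, with the closest region edges 51.1 and 63.4 kb away. Inhibitory receptors and phosphatases were overlapped in 23 of 26 cases (median 6): the receptor Lilrb4a had 11, the SHP-1 phosphatase gene Ptpn6 10, and the phosphatase gene Ptprc and the adaptor Dok1 9 each, while Cd22 had 0. Inpp5d, which encodes the SHIP-1 phosphatase that Fcgr2b recruits and was named here for that role after its values were seen, had 6 regions, 4 of them over the gene.

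Among Src-family kinases 5 of 7 were overlapped (median 7), against 50.6% of all protein-coding genes (median 2). Lck had 12 regions but 1 over the gene, Src had 8 and Fyn had 7. The list of ITAM-coupled myeloid receptors held genes that signal through an adaptor and others with an ITAM-like motif of their own. Of its 18 genes, 9 were overlapped, a share near the 50.6% of all protein-coding genes. Their median was 4 regions over the 18. There were 11 regions at Cd300lb and 7 each at Clec4n, Clec4d and Cd300ld. Trem1, Trem3 and Pira2 had 0. The windows of Clec4n and Clec4d hold the same covered length, 28.3 kb.

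Of 13 other Fc receptors, 8 had an assigned region and 6 were overlapped (median 2), close to all protein-coding genes (70.6%, 50.6% and a median of 2). Fcrlb and Fcrla, next to Fcgr2b, had 9 each, Fcgrt, the neonatal Fc receptor, had 7 and Fcer2a, the low-affinity IgE receptor of B cells, had 6 with 0 over the gene. Fcer1a, the IgE-binding chain that pairs with FcR gamma on mast cells, had 0, with the nearest region edge 181 kb away. Fcamr, a receptor for IgA and IgM, and Fcmr, a receptor for IgM, also had 0. The list of other ITAM adaptors had 7 genes, among them Hcst, whose product DAP10 carries no ITAM of its own. All 7 had an assigned region (70.6% of all protein-coding genes). Of them, 2 were overlapped, Hcst and Cd3d (50.6% of all protein-coding genes). Cd79b had 7, Cd3g 5, and Hcst and Cd79a 4 each; those of Hcst are the same wide and neighbouring regions as at Tyrobp.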

How the data were processed

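MED1 ChIP-seq was made from double-fixed RAW 264.7 cells, 2 LPS and 2 untreated libraries. Bowtie, SAMtools, MACS2 2.2.6 and mm10 are named in the submitters' processing notes; calling settings, control and pooling are not stated. The deposited list has 53764 lines; its score column, as deposited, holds 0 throughout. The number of columns of other samples is 0. Positions were turned to 1-based, 4 mitochondrial intervals were left out, and 53760 intervals were joined where they abut. Genes and starts came from RefSeq GRCm38.p6. Counting was checked on simulated data with planted regions. Python 3.11.15, numpy 2.4.6, pandas 2.3.3 and matplotlib 3.10.9 were used.

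The members and lists were chosen with earlier results of these data known. From each list, up to 4 genes with the most regions (ties by covered length) and up to 3 with none are named. A few genes are not reported here. The design's comparison of LPS with untreated cells needs values per library and was not made. An overlap is at least 1 bp. No depth or interval per value could be computed.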

Additional observations from a re-analysis of the deposited data

How the results depend on the processing

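The median number of regions at the 8 genes (7) and at the related genes (5) stayed within 1.5 times under any overlap instead of the midpoint and with regions 500 bp apart merged. It was 2 and 2 with a window of 10 kb, 15.5 and 12 with intervals not joined, 4.5 and 2.5 with regions at or above the median width, and 4 and 3 without single-interval regions. All protein-coding genes had medians of 1, 5, 1 and 1 under these settings. The median covered length (20.8 kb) was 31.4 kb with a window of 100 kb. A region overlapped 8 of 8 genes, and 7 without single-interval regions, since the one at Fcgr4 is single; a region midpoint lay inside 4. By covered length, 2 genes (Tyrobp and Fcer1g) had a cluster among the largest 5%, and 3 did when stitched within 5 kb. With clusters ranked by number of regions, 1 gene did, and it was a different one. Syk then had rank 140 of 13554, while Tyrobp and Fcer1g had rank 2119 each and dropped out. With the shorter window Syk and Lyn led the order, and with 100 kb Fcgr2b did. No paired analysis was possible because the list holds no values per library, and for the same reason no library could be left out. Depth and background limit every value to a position in the list.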
